A study of Mus musculus with 4 samples.

Results

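The 10 genes described here belong to the unfolded protein response and the integrated stress response, and they are 10 of the 56832 gene rows of each count file. Ern1, Xbp1 and Atf6 are sensors and factors of the endoplasmic reticulum, Hspa5 and Hsp90b1 are its chaperones, Atf4, Ddit3 and Trib3 are transcription factors and an effector downstream of eIF2, and Ppp1r15a and Ppp1r15b encode regulatory subunits of the eIF2 phosphatase. The rows were taken by gene symbol, and all 10 symbols were found. The genes were chosen by pathway with the counts of these same libraries in view, so their levels and their spread between libraries are given as description, with no p-value.

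The series compared myeloid cells that enter the mouse brain from a blood stem cell graft with the brain's own microglia. Only the naive microglia, in 4 libraries, were analysed here, so there is 1 group and no contrast between treatments. They came from female C57BL/6 mice with no transplant and no other intervention, and the age is not given in the sources used here. Cells were sorted from dissociated brain as CD11b-positive with low to intermediate CD45, and RNA with an integrity number above 8 went into a low-input library kit, per the labels. Whether each library is a separate animal is not stated in the labels, so p-values measure only the spread among these 4 samples, which could be technical.

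The unfolded protein response is the answer of a cell to misfolded proteins in the endoplasmic reticulum. IRE1, encoded by Ern1, cuts the Xbp1 transcript so that it encodes an active factor, ATF6 is released by proteases in the Golgi, and PERK phosphorylates the initiation factor eIF2. The integrated stress response joins PERK with other eIF2 kinases that sense amino acid shortage, viral RNA or heme shortage. Phosphorylated eIF2 slows most translation but favours that of ATF4, which induces Ddit3, Trib3 and Ppp1r15a, and the product of Ppp1r15a closes the loop by returning eIF2 to its unphosphorylated state. In macrophages these pathways are known to support secretion and to shape cytokine output. Splicing of Xbp1, cleavage of ATF6, phosphorylation of eIF2 and translation of Atf4 are not visible in counts per gene.

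The 4 libraries held 20360121 to 23292655 reads assigned to genes, and 13944 to 18978 genes with at least 1 count, fewest in replicates 4 and 1. The 10 microglia markers had a median level of 3885 CPM, the unit in which gene counts are divided by all gene-assigned reads of the library, and all 10 reached 1 CPM in every library. Those markers took 6.32%, 3.78%, 3.54% and 6.14% of counts in replicates 1 to 4, lower in replicates 2 and 3. Replicates 2 and 3 stood apart in immediate early genes, the first genes that a stimulus induces. A list of 17 such genes took 0.665%, 5.93%, 5.13% and 0.682% of counts in replicates 1 to 4. Replicate 4 differed by transcript length, with a median deviation from the 4-library mean of 0.30 on the log2 scale for tested genes of up to 2.858 kb of exon and -0.17 for those of 5.458 kb or more. Across replicates 1 to 4, 10 neutrophil markers summed to 1548, 315, 299.5 and 2435 CPM, 8 oligodendrocyte markers to 517, 1844, 1875 and 629 CPM, and 8 border macrophage markers to 194, 620, 719 and 365 CPM. Replicate 4 was the lowest library for Atf4, Atf6, Ern1, Hspa5, Hsp90b1, Ppp1r15a and Ppp1r15b. Ddit3 was lowest in replicate 1, Xbp1 in replicate 2, and Trib3 had 0 counts in replicates 2 and 4. In the same order of libraries, 5 choroid plexus markers summed to 453, 930, 937 and 2074 CPM, of which Ttr alone gave 441, 883, 878 and 2008 CPM. Folr1 was also highest in replicate 4, but Clic6 and Kcnj13 were highest in replicate 3 and Kl in replicate 2. Of 8 B and plasma cell markers, Igha gave 0, 0, 0 and 387 counts and Jchain 0, 0, 1 and 171 counts, while Ms4a1 and Mzb1 were at 0 in every library. Across replicates 1 to 4, 6 astrocyte markers summed to 315, 429, 504 and 240 CPM, and 6 neuron markers to 12.4, 18.4, 38.4 and 21.4 CPM. Among them Gfap gave 1, 351, 253 and 1 counts and Snap25 1, 167, 325 and 2 counts, while Aqp4, Gja1 and Camk2a were highest in replicate 4. The part of these other cells in the levels given below was not tested. In bulk RNA of sorted cells, fewer cells of a type and less RNA per cell cannot be told apart.

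Promoters of 3 genes are shown because these genes had the pathway's known stress elements, or a cyclic AMP response element (CRE), within the 250 bases before the annotated start. The sequences are from RefSeq on GRCm38.p6, which is not the authors' build GRCm39, and were matched by symbol. The table held 8 of the 10 genes, Ppp1r15b and Atf6 being the other two. Each reads 5′ to 3′ on the strand of the gene, with capitals marking the ERSE (endoplasmic reticulum stress element) in Hspa5 and Hsp90b1 and the CRE in Ppp1r15a.
Hspa5 (chr2:34771840-34772089, plus strand): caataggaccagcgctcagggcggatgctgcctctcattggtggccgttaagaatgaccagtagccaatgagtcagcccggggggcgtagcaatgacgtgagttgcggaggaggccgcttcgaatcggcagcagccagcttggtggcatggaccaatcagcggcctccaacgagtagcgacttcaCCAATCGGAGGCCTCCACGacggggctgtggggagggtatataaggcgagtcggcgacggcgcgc
Hsp90b1 (chr10:86705445-86705694, minus strand): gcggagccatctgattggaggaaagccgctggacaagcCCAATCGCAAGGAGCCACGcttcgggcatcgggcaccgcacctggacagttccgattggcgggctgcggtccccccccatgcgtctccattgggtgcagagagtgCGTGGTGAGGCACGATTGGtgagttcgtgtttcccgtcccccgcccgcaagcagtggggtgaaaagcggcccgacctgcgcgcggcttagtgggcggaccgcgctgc
Ppp1r15a (chr7:45526269-45526518, minus strand): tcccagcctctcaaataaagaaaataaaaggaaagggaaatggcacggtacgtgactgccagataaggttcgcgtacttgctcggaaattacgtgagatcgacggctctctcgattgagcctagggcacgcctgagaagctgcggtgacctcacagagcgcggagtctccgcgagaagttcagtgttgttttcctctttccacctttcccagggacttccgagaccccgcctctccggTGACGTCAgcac

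The ERSE, searched on both strands (a CCAAT box, a spacer of 9 bases and CCACG), is the element through which ATF6 and the CCAAT-binding factor NF-Y act. Only exact matches to each pattern were counted, so the numbers of elements given here leave out imperfect copies. The exact ERSE was found in 2 of the 8 promoters, against 0.113% of the 32851 promoter windows of the table. The element was searched as one already known for this pathway, so these counts are a description and no test of enrichment. In Hspa5 it lay 65 to 47 bases before the start, while Hsp90b1 held it on the strand of the gene at 212 to 194 bases and on the opposite strand at 107 to 89 bases before the start. The exact CRE, searched as the palindrome TGACGTCA, was found in Ppp1r15a alone among the 8, at 12 to 5 bases before the start, and in 1.55% of all windows. Near matches to it, such as tgacgtga in the Hspa5 sequence above, were not counted. No match was found in the 8 windows for ERSE-II (0.0304% of all windows), for the unfolded protein response element (TGACGTGG, 0.563%) or for the C/EBP-ATF response element (TGATGNAAT, 0.816%). The CCAAT box, which overlaps the ERSE by its own letters, was found in 4 of the 8 promoters, those of Hspa5, Hsp90b1, Atf4 and Ddit3, and in 33.8% of all windows.

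**Figure D1:**
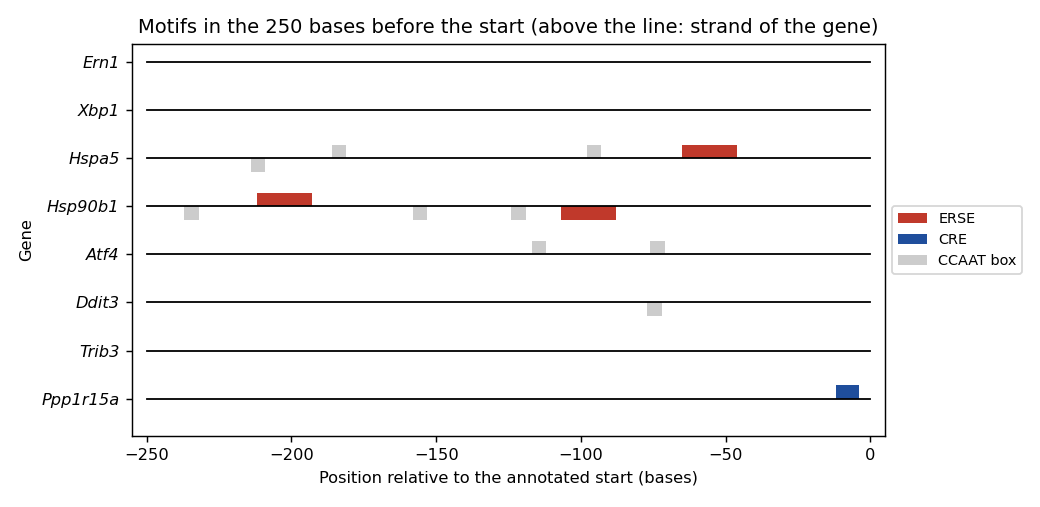
Motif positions, in bases relative to the annotated start, in the RefSeq promoter windows of 8 genes, with bars above the line on the strand of the gene and bars below it on the opposite strand. Only exact matches are drawn. Hspa5 holds 1 such ERSE and Hsp90b1 holds 2, Ppp1r15a holds a CRE close to its start, and CCAAT boxes inside an ERSE are covered by its bar.

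Levels of different genes were compared per kb of exon, with union exon lengths from a GENCODE annotation of GRCm38. On that scale Hspa5 stood at 729 ± 355 CPM per kb, Ppp1r15a at 375 ± 406, Hsp90b1 at 217 ± 62.7 and Xbp1 at 203 ± 28.4 CPM per kb (SD, n = 4). Atf4 followed at 57.5 ± 16.9, Ddit3 at 44.3 ± 21.8, Ppp1r15b at 17.1 ± 2.79 and Atf6 at 5.70 ± 1.42 CPM per kb. Trib3, at 0 to 3.52, and Ern1, at 0.0300 to 1.84 CPM per kb, were the lowest. The lowest library of Xbp1 lay above the highest of Atf4, that of Ddit3 above Ppp1r15b, that of Ppp1r15b above Atf6, and that of Atf6 above Trib3. The other neighbours in this order overlapped, and Ppp1r15a was below Hsp90b1 in replicates 1 and 4 and above it in replicates 2 and 3.

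**Figure D2:**
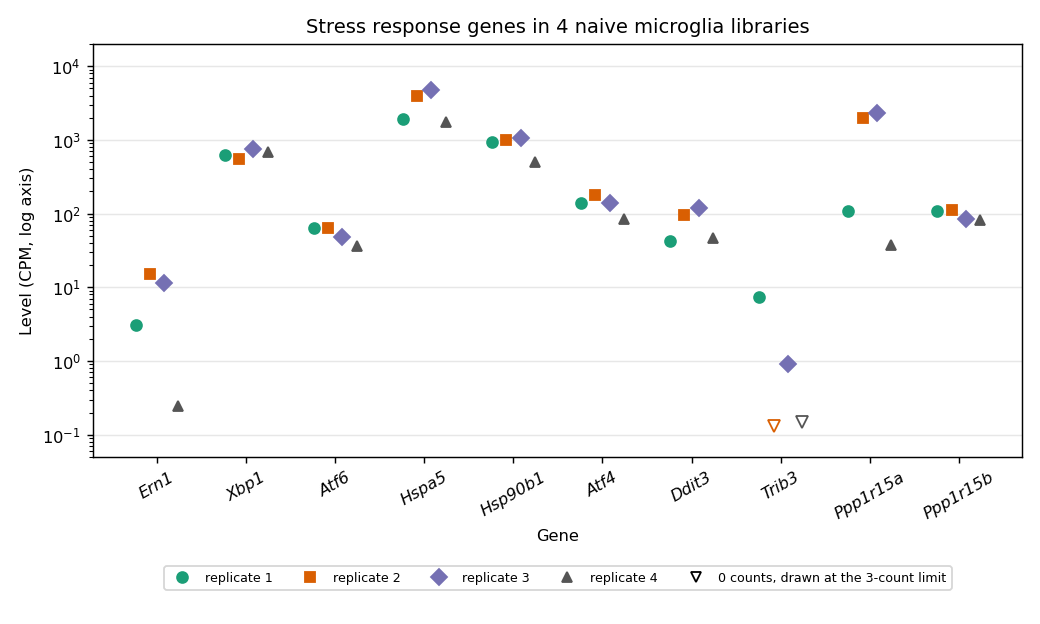
Level of each of the 10 genes in CPM on a log axis, 1 point per library, with open triangles for 0 counts drawn at the level that 3 counts would give. Ppp1r15a and Ern1 separate widely between libraries, and the 4 points of Xbp1 and of Ppp1r15b lie close together.

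Ern1 encodes IRE1, the kinase and endoribonuclease of the endoplasmic reticulum membrane that splices Xbp1. It gave 3.06, 15.0, 11.4 and 0.246 CPM in replicates 1 to 4. Replicate 4 rests on 5 counts, with an exact Poisson interval of 0.0797 to 0.573 CPM, which covers counting error only. Replicate 2 was 61.1-fold replicate 4, with a counting interval of 25.9-fold to 189.5-fold. Replicates 2 and 3 were high and replicate 4 lowest, and the log2 range of Ern1, on log2(CPM + 0.5), was 4.38 with replicate 4 and 2.12 without it. Ern1 did not pass the filter on low counts and was not part of the fit across genes.

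Xbp1, whose spliced form encodes a factor for chaperones and for degradation from the endoplasmic reticulum, gave 627, 548, 763 and 694 CPM in replicates 1 to 4. Its mean was 658 ± 92.3 CPM (SD, n = 4) with a log2 range of 0.48. Of the libraries high in immediate early genes, replicate 2 was the lowest for Xbp1 and replicate 3 the highest. Per kb of exon, Xbp1 exceeded Ern1 by 6.52 to 12.66 on the log2 scale in 4 of 4 libraries, the highest value resting on the 5 counts of Ern1 in replicate 4.

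Atf6 encodes the sensor that is cut in the Golgi to release a transcription factor, and it gave 62.8, 63.6, 47.5 and 36.3 CPM in replicates 1 to 4. Replicate 4 was the lowest and replicates 1 and 2 were nearly level. The log2 range was 0.80 over the 4 libraries and 0.42 without replicate 4. Per kb of exon, Ern1 was below Atf6 in 4 of 4 libraries, with log2 ratios of -4.17, -1.91, -1.88 and -6.90.

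Hspa5 encodes BiP, the HSP70 chaperone of the endoplasmic reticulum that also holds the sensors inactive. It gave 1917, 3915, 4775 and 1730 CPM in replicates 1 to 4, a mean of 3084 ± 1499 (SD, n = 4). Replicates 2 and 3 were both above replicates 1 and 4, and the highest library was 2.76-fold the lowest. Hspa5 and Ddit3 were the closest pair among the 10 genes, with a Euclidean distance of 0.18 between their centred log2 profiles over 4 libraries.

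Hsp90b1 encodes GRP94, the HSP90 chaperone of the same compartment, and gave 949, 999, 1048 and 499 CPM in replicates 1 to 4. Replicates 1, 2 and 3 lay close together and replicate 4 stood below them, so that the log2 range was 1.07 over the 4 libraries and 0.14 without replicate 4. Its exons share 415 of their 4032 bases with 1810014B01Rik on the opposite strand, which gave 226, 227, 245 and 1143 counts. Hsp90b1 itself gave 19555, 22555, 24409 and 10166 counts, lowest in the library where that gene was highest. Without a stated strand setting, reads of that stretch cannot be told apart, and their part in the level of Hsp90b1 was not tested. Per kb of exon, Hspa5 exceeded Hsp90b1 in 4 of 4 libraries, by 0.95, 1.90, 2.12 and 1.72 on the log2 scale. Both promoters carry the ERSE printed above, with 1 exact match in Hspa5 and 2 in Hsp90b1, near matches not being counted.

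Atf4, the central factor of the integrated stress response, gave 140, 181, 138 and 83.4 CPM in replicates 1 to 4. Replicate 2 was highest and replicate 4 lowest. Its log2 range of 1.11 became 0.39 without replicate 4. The mean was 136 ± 40.0 CPM (SD, n = 4), and this is a transcript level, which does not report the protein.

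Ddit3 encodes CHOP, a factor known for promoting cell death under lasting stress. It gave 42.9, 95.6, 119 and 46.4 CPM in replicates 1 to 4. Replicates 2 and 3 were both above replicates 1 and 4, with a 2.77-fold distance from the lowest to the highest library. Per kb of exon, Ddit3 over Atf4 was -1.25, -0.46, 0.25 and -0.38 on the log2 scale, so Atf4 was the higher transcript in 3 of 4 libraries. The exons of Ddit3 share 68 bases with a methionyl-tRNA synthetase gene on the opposite strand, named Mars in the annotation and Mars1 in the count files, which gave 1834, 1353, 1445 and 1668 counts in replicates 1 to 4.

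Trib3 encodes a pseudokinase that is induced by ATF4 and CHOP and restrains them and AKT signalling. It gave 154, 0, 21 and 0 counts in replicates 1 to 4, which is 7.47 CPM in replicate 1 and 0.902 CPM in replicate 3. A count of 0 allows up to 0.133 CPM in replicate 2 and 0.147 CPM in replicate 4. Trib3 was thus high in a library where Ddit3 and Ppp1r15a were low, and it was undetected in replicate 2, where Atf4 was highest. Per kb of exon, Trib3 over Ddit3 was -2.83 on the log2 scale in replicate 1 and -7.32 in replicate 3. Trib3 did not pass the filter on low counts.

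Ppp1r15a encodes GADD34, the inducible subunit that brings protein phosphatase PP1 to eIF2. It gave 108, 1971, 2285 and 37.9 CPM in replicates 1 to 4, a distance of 60.3-fold between the lowest and the highest library. Replicates 2 and 3 lay far above replicates 1 and 4, as they did for the immediate early list, and whether that list has a part in the level of Ppp1r15a was not tested. Without replicate 4 the log2 range was 4.40 in place of 5.90.

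Ppp1r15b encodes CReP, the constitutive counterpart of GADD34, and gave 107, 111, 84.0 and 80.6 CPM in replicates 1 to 4. All libraries lay within 1.38-fold of each other. Per kb of exon, Ppp1r15a over Ppp1r15b was 0.94, 5.08, 5.69 and -0.16 on the log2 scale, so the inducible subunit was far higher in replicates 2 and 3 and about level with the constitutive one in replicate 4. The exons of Ppp1r15b share 640 bases with Gm26616 on the opposite strand, which gave 0, 31, 29 and 140 counts.

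**Figure D3:**
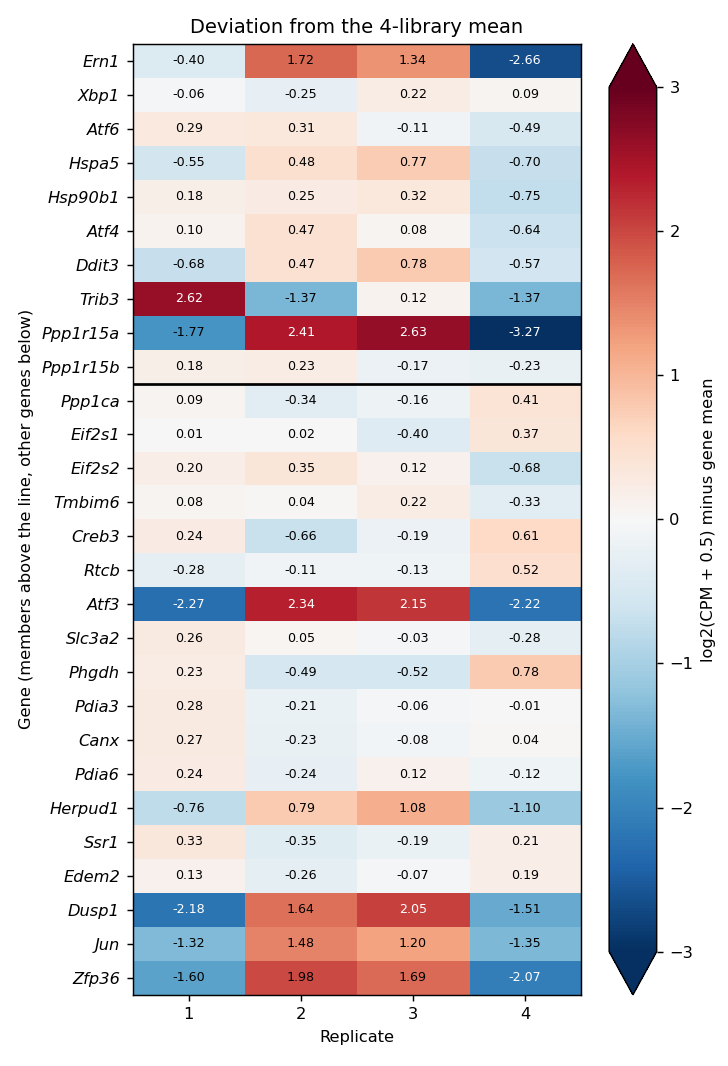
Deviation of log2(CPM + 0.5) from the 4-library mean of each gene, with the 10 genes above the line and the 3 most abundant genes of each of 6 other lists below it, and colour cut at 3 in both directions. Ppp1r15a, with 2.41 and 2.63 in replicates 2 and 3, resembles Atf3 and the immediate early genes at the bottom, while Xbp1 lies between -0.25 and 0.22 and Ppp1r15b between -0.23 and 0.23.

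Spread between the 4 libraries was tested gene by gene with edgeR, as the ratio of a gene's quasi-likelihood dispersion to the trend at its level, for 9075 genes that passed a filter on low counts. After Benjamini-Hochberg adjustment edgeR called 0 of 9075 genes (0%), and DESeq2 flagged 0 genes as dispersion outliers. At an unadjusted p under 0.05, edgeR gave 395 genes (4.35%). The smallest adjusted p of any gene was 0.94, with 4.24 prior degrees of freedom, although 2083 of the 9075 genes differed by 4-fold or more between libraries. The count of 0 therefore does not show that genes did not vary. Of the 10 genes, 8 passed the filter.

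The dispersion of Ppp1r15a was 44.9 times the trend, that of Hspa5 3.80, of Ddit3 3.11, of Hsp90b1 2.19 and of Atf4 1.78 times. The dispersion of Atf6 was 0.621, of Ppp1r15b 0.420 and of Xbp1 0.369 times the trend. The median over the 8 was 1.98, against 0.943 over all genes tested. A distance of 4-fold or more between the lowest and the highest library, on log2(CPM + 0.5), was reached by 1 of the 8 tested members, Ppp1r15a, which is 12.5%, against 23% of all genes tested. Without replicate 4 it was again 1 of 8, against 7.27% of all genes tested. Ern1 and Trib3, which did not pass the filter, also reached it, and Trib3 no longer did without replicate 1, since its remaining counts are 0, 21 and 0. Replicates 2 and 3 were both above replicates 1 and 4 for Ddit3, Ppp1r15a, Ern1, Hspa5 and Hsp90b1, which is 4 of the 8 tested members, against 19.6% of all genes tested. For Hsp90b1 that order rests on a small gap, 949 CPM in replicate 1 against 999 CPM in replicate 2.

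**Figure D4:**
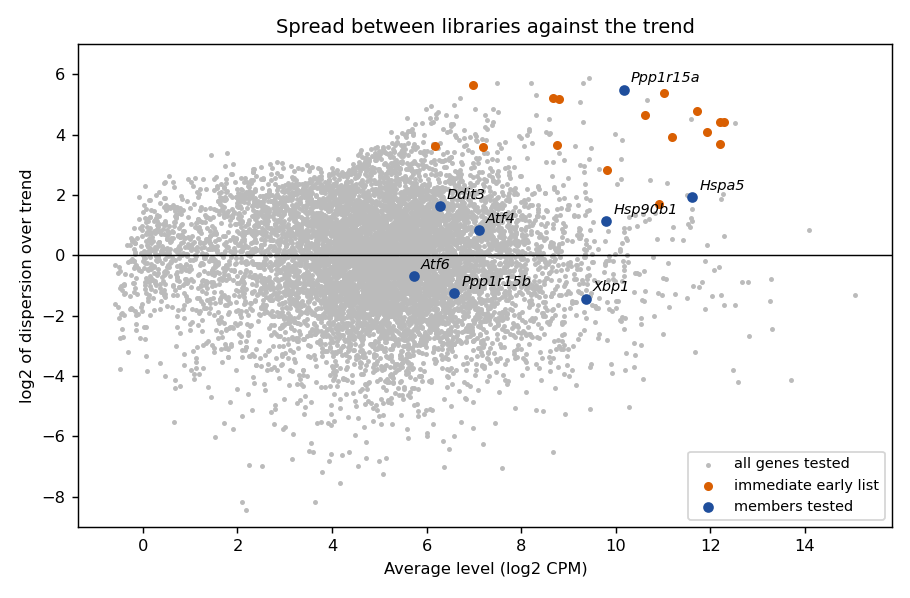
Dispersion over trend (log2) against average level (log2 CPM) for 9075 genes in grey, immediate early genes in orange and the 8 tested members in blue. Ppp1r15a lies at the upper edge among immediate early genes, and Atf6, Ppp1r15b and Xbp1 lie below the line of the trend.

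Genes that work with these 10 were read from 5 lists of 93 genes in all, of which 77 passed the filter. After adjustment edgeR called 0 of the 77, with adjusted p-values of 0.94 or more, and 6 (7.79%) had an unadjusted p under 0.05, against 4.35% of all genes tested. The median log2 range of the 77 was 0.90, against 1.22 over all genes tested. A 4-fold distance was reached by 14 of the 77 (18.2%), against 23% of all genes tested. Without replicate 4 it was reached by 3 of the 77 (3.896%), against 7.27% of all genes tested.

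Among eIF2 kinases, eIF2 and its exchange factor and phosphatase subunits, 14 of 15 genes passed the filter and 0 of the 14 had an unadjusted p under 0.05, against 4.35% of all genes tested. The most abundant was Ppp1ca, a catalytic subunit of PP1, at 435 ± 101 CPM (SD, n = 4). Eif2s1, the alpha subunit that the kinases phosphorylate, stood at 122 ± 26.2 CPM, and Eif2s2, the beta subunit, at 94.2 ± 26.0 CPM. Eif2ak3, which encodes PERK, gave 37.2, 30.7, 26.4 and 1.87 CPM in replicates 1 to 4. Like Ern1, it was lowest in replicate 4. It was named after its values were seen, as were the genes outside the 3 most abundant of each list in the next paragraphs.

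Of 14 partners of the sensors 10 passed the filter, and their median log2 range was 0.84. Tmbim6, an inhibitor of cell death that restrains IRE1, stood at 2015 ± 306 CPM, Creb3, a relative of ATF6, at 194 ± 71.2 CPM and Rtcb, the ligase that joins the cut Xbp1 exons, at 181 ± 48.5 CPM (SD, n = 4). Mbtps1, the first of the proteases that cut ATF6, gave 41.5, 85.3, 68.1 and 6.83 CPM and had an unadjusted p of 0.042, which is 0.94 after adjustment by edgeR. Ern2, known as the IRE1 of gut epithelium, had 0 counts in every library.

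Targets of ATF4 and CHOP had the widest spread of the 5 lists, with a median log2 range of 1.72 in the 18 of 26 genes that passed the filter and 4 of the 18 (22.2%) at an unadjusted p under 0.05, against 4.35% of all genes tested. Atf3, a repressor that is also an immediate early gene, gave 129, 3175, 2786 and 134 CPM in replicates 1 to 4. Gdf15, a stress cytokine, gave 3.88, 66.0, 104 and 4.32 CPM. Cebpb, an inflammatory factor, gave 31.4, 87.8, 35.0 and 3.09 CPM, and Bbc3, which encodes the death factor PUMA, gave 0.873, 60.5, 25.4 and 33.9 CPM. The libraries high in Atf3 and Gdf15 were those high in Ppp1r15a and Ddit3.

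Amino acid genes of the same list had no common order of libraries. Slc3a2, the heavy chain of amino acid exchangers, stood at 616 ± 95.9 CPM (SD, n = 4) and was lowest in replicate 4. Phgdh, the first enzyme of serine synthesis, gave 183, 111, 108 and 269 CPM, and Asns, asparagine synthetase, gave 6.99, 2.79, 3.43 and 22.5 CPM, both highest in replicate 4. Psat1, a later enzyme of serine synthesis, gave 49.8, 31.6, 36.5 and 15.1 CPM, lowest in replicate 4. Slc7a11, the cystine transporter, did not pass the filter and gave 1.21, 6.16, 9.10 and 0.393 CPM, high in replicates 2 and 3 as was Ddit3. Aars, an alanyl-tRNA synthetase, gave 179, 137, 133 and 141 CPM. Chac1, Fgf21, Stc2 and Tnfrsf10b had 0 counts in every library.

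The other chaperones and folding enzymes of the endoplasmic reticulum had a narrow spread, with a median log2 range of 0.70 in the 17 of 19 that passed the filter and 0 of the 17 at an unadjusted p under 0.05, against 4.35% of all genes tested. Pdia3, a disulfide isomerase of glycoproteins, stood at 1785 ± 261 CPM, the lectin chaperone gene Canx at 1117 ± 163 CPM and Pdia6 at 662 ± 99.5 CPM (SD, n = 4). Dnajb9, a cochaperone of BiP and a known XBP1 target, gave 304, 273, 243 and 283 CPM. In 0 of the 17 were replicates 2 and 3 both above replicates 1 and 4, against 19.6% of all genes tested. Hyou1 and Ero1a did not pass the filter, and of these Ero1a, at 7.72, 24.5, 27.3 and 0.0982 CPM, did have replicates 2 and 3 highest.

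Degradation and translocation genes had a median log2 range of 0.83 in the 18 of 19 that passed the filter. Herpud1, a membrane component of degradation from the endoplasmic reticulum, gave 514, 1510, 1845 and 406 CPM in replicates 1 to 4 and was the 1 gene of the 18 (5.56%) at an unadjusted p under 0.05, against 4.35% of all genes tested. Its order of libraries was that of Hspa5. Ssr1, of the translocon, stood at 400.4 ± 88.5 CPM and Edem2, of glycoprotein degradation, at 359.97 ± 50.02 CPM (SD, n = 4). Sel1l, the scaffold of the degradation complex, gave 133, 99.2, 116 and 24.8 CPM, again lowest in replicate 4.

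**Figure D5:**
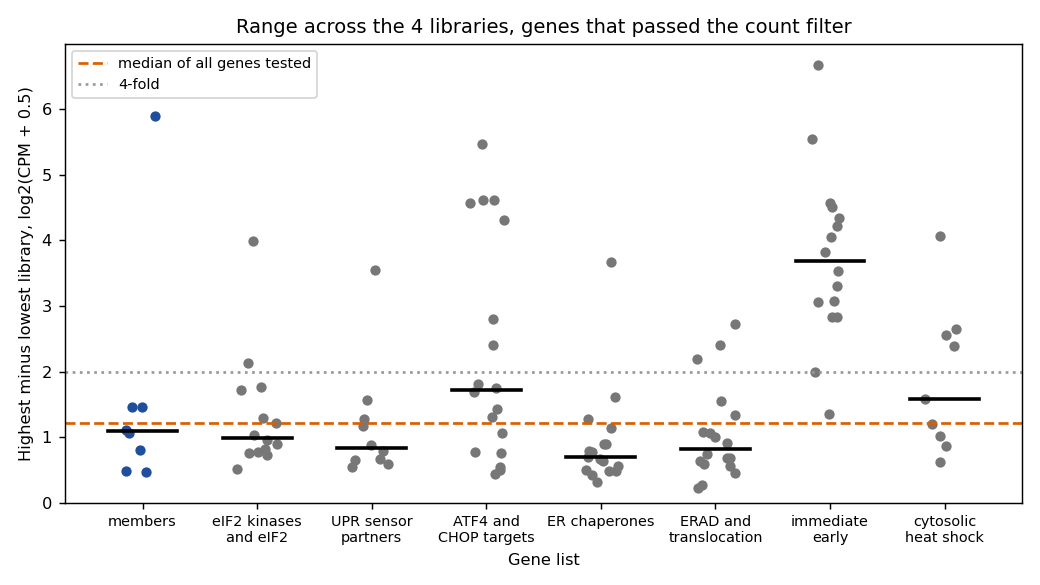
Difference between the highest and the lowest library, on log2(CPM + 0.5), for the genes of each list that passed the count filter, with the list median as a black bar, the median of all genes tested dashed at 1.22 and 4-fold dotted at 2. The immediate early list sits highest, with a median of 3.68, and the chaperone list lowest, with 0.70, while the 8 tested members have a median of 1.09.

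Genes with the most similar pattern were sought for 4 of the genes among 8167 others with a mean of 10 CPM or more, by the Euclidean distance between centred log2 profiles over 4 libraries. With 4 libraries, many genes share an order, and the distances are a description. For Atf4 the nearest were Cebpa, Mrpl50, Arid1a, Ccnd3 and Elmo2, at distances of 0.08 to 0.12. For Ddit3 they were H3f3b, Chd1, Ftl1, Tubgcp2 and Ftl1-ps1, at 0.06 to 0.17, and Ftl1 and Ftl1-ps1 are near copies whose reads may be split between them.

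For Hspa5 the nearest genes were H3f3b, Bod1l, H2-K1, Mcl1 and Ddx24, at distances of 0.14 to 0.16. H3f3b, which encodes a replacement histone, was thus the nearest to both Ddit3 and Hspa5. For Ppp1r15a the nearest were Ccl7, Tnf, Tnfaip3, Rmnd5a and Tnfsf9, at 0.44 to 0.77. Among them Tnf, the inflammatory cytokine gene, gave 20.5, 611, 496 and 10.2 CPM in replicates 1 to 4, and Tnfaip3, a feedback inhibitor of NF-kappa-B, gave 41.0, 1295, 1070 and 20.04 CPM.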

How the data were processed

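RNA sequencing libraries of sorted naive mouse microglia, 4 replicates of 1 group, were analysed. The authors deposited raw read counts per gene symbol, 1 file per library. Alignment to GRCm39 and counting rested on STAR 2.7.10a, SAMtools 1.16.1 and HTSeq 0.11.2, per the submitters' processing notes. No source used here gives the strand setting, the gene annotation or how reads were filtered. The 5 closing rows of reads given to no gene, 20.8% ± 1.28 of reads (SD, n = 4), were left out.

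Counts were scaled to CPM. Counting intervals are exact at 95%, limits for 0 counts use 3 counts, and both cover counting error only. Spread was fitted with edgeR 4.0.16 in R 4.3.3, with filterByExpr at a minimum count of 10, TMM and an intercept-only quasi-likelihood fit. The test was an upper-tail F test against the trend, with Benjamini-Hochberg adjustment at 0.05. The fit was also run on counts simulated with every gene at the trend dispersion. That setting lacks the gene-to-gene spread of dispersion in these data, so it does not show the power of the test here. DESeq2 1.42.0 served as an alternative for size factors and for dispersion outliers. Ranges used a pseudocount of 0.5 CPM and pairs 0.5 counts. Exon lengths matched 89.1% of gene rows, holding 98.3% of counts. Python 3.11.15 with pandas 2.3.3 did the rest.

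The rule for named genes takes all 10 members, the 3 most abundant genes of each list and the 5 most similar genes of 4 members. It also takes list genes past the adjusted threshold, of which there were 0. Members, lists and pairs were chosen with earlier results of these data known.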

Additional observations from a re-analysis of the deposited data

Results flagged for a closer look

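Single libraries were compared with the other replicates for 37 genes and pairs, and 2 stood far from the rest, where chance gives about 1 in 20. Trib3 in replicate 1, at 7.47 CPM, was separated from the nearest library by 0.879 of the whole range of the 4 libraries. Rtcb, the ligase gene of Xbp1 splicing, in replicate 4, at 252 CPM, was separated by 0.832 of the range.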

How the results depend on the processing

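The count of genes past the adjusted threshold was also 0 with DESeq2 size factors, total counts, no filter on low counts, DESeq2 dispersion outliers and without each replicate, which says nothing about stability, since the test called no gene in any setting. Leaving out 1 replicate gave 660 to 1843 tested genes and 3 to 13 pathway genes at a 4-fold distance, the lowest being without replicate 4. Mean levels of the 10 members moved by less than 1 SD under every scaling. Without replicate 1 the mean of Trib3 was 0.301 CPM in place of 2.09, and without replicate 3 the mean of Ppp1r15a was 705 CPM in place of 1100.4; without replicate 2 that of Ern1 was 4.89 CPM in place of 7.42. Without exon length the log2 ratio of Ppp1r15a over Ppp1r15b was 1.96 in place of 2.89, and the 6 pair ratios moved by less than 1 SD without exon length or with a pseudocount of 2 counts. Of 70 log2 ranges of members under other settings, 65 moved by less than 1 SD; the other 5 leave out replicate 4 or, for Trib3, replicate 1. TMM shifted the median of all tested genes by -0.11 on the log2 scale in replicate 4. The 4-fold counts under other settings were added after seeing the data. Trib3 and Ern1 had 5 counts or fewer in some libraries, so their ratios and ranges there rest on few reads. No paired analysis was possible because there is 1 group.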

Other observations

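Heat shock genes of the cytosol and mitochondria, which answer misfolding outside the endoplasmic reticulum, were read beside the 10 genes. Of 12 genes 9 passed the filter, 0 were called by edgeR after adjustment and 3 (33.3%) had an unadjusted p under 0.05, against 4.35% of all genes tested. The constitutive HSP70 gene Hspa8 gave 2138, 3542, 3913 and 1936 CPM in replicates 1 to 4, the order seen in Hspa5, and Dnajb1 gave 152, 440, 455 and 267 CPM. Hsp90ab1 gave 455, 952, 1072 and 204 CPM. Hspa1a, the classical inducible HSP70 gene, gave 289, 318, 243 and 175 CPM, and its near-identical copy Hspa1b gave 13.1, 4.12, 4.29 and 28.4 CPM, a split that is uncertain for reads both copies match.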
